A study of Mus musculus with 12 samples.

Results

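The chromodomain helicase DNA-binding (CHD) genes Chd1 to Chd9 were taken by symbol, 9 of the 54356 genes to which reads were summed, and all 9 were among the 16043 genes tested. They have 96 transcripts in the deposited tables, of which 58 were among the 51037 transcripts tested. Each of 4 groups of primary neural stem cell cultures from mouse gave 3 RNA libraries: cells labelled Chd5-/- taken 48 h after the start of differentiation, wild-type (WT) cells at 48 h, cells labelled Chd5-/- at 3 h and WT cells at 3 h. Before that, all 4 groups had grown in the presence of EGF and FGF2, growth factors that keep neural stem cells dividing, and a switch to neurobasal medium with the B-27 supplement started neural differentiation. The labels give neither the deleted part of Chd5 nor the strain, age or number of the donor animals, and they do not say that replicates came from separate cultures, so that p-values speak to the spread between libraries alone, which may be technical. The study set out to find genes whose level depends on Chd5 during neuronal differentiation, and within it the paralogues bear on whether another CHD gene is raised where Chd5 is deleted.

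CHD proteins use ATP to move or restructure nucleosomes and carry paired chromodomains, modules that bind histone tails or DNA. Chd1 and Chd2 form a first subfamily tied to active transcription. Chd3, Chd4 and Chd5 form a second, the alternative motor subunits of the nucleosome remodelling and deacetylase (NuRD) complex, which couples remodelling to histone deacetylation. Chd6 to Chd9 form the remaining subfamily, of very large proteins. Within NuRD, Chd4 is the widely used motor in dividing cells, and Chd5 is known from neurons and testis.

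Levels are given in CPM, read counts relative to library size after TMM scaling (trimmed mean of M-values, which corrects for differences in RNA composition). Libraries held 14.11 to 18.71 M estimated reads. In 3 libraries the profile stood apart from the other 2 of their group. In WT replicate 1 at 3 h, ribosomal protein genes took 13.4% of the reads, against 3.04% to 3.74% in the other 11, and transcripts of 6000 bases or more took 2.83%, against 10.9% to 12.6%. The longest coding transcript of each CHD gene exceeds that length, and 6 of the 9 genes had their lowest level of the 3 h libraries in this one. Mitosis genes were still high in the second 48 h library of each genotype, with a mean log2(CPM + 1) over 10 genes of 7.13 in the library labelled Chd5-/- and 7.30 in WT, against 3.37 to 3.46 in the other 4. The part of these differences in the CHD results was not tested, and results are given with all 12 libraries and with the 9 that remain without these 3. Those 9 hold 2 libraries of each genotype at 48 h, and 3 labelled Chd5-/- and 2 WT at 3 h. Within a group they differed by a chi-square per gene of 1.79 to 5.33, against 132 to 434 for pairs with a library that stands apart. Small p-values with 9 libraries speak to that small spread alone. Of 10 neural stem cell markers, 9 were above 1 CPM in at least 1 library of every group and their summed level lay between 4285 and 9064 CPM. Microglial and endothelial markers summed to under 2.5 CPM in every library, while 7 fibroblast and smooth muscle markers summed to 573 to 606 CPM in libraries labelled Chd5-/- at 3 h, with Lum and Pdgfrb at 0, against 6.05 to 10.03 CPM in WT at 3 h. Of that sum, 566 to 598 CPM in libraries labelled Chd5-/- was Acta2 alone, 4 of the 7 were under 1 CPM in each of these libraries, and of the 3 tested Acta2 and Tagln were called as higher and Col1a1 as lower. At 3 h, 6 astrocyte markers summed to 39.2 to 43.8 CPM in libraries labelled Chd5-/-, against 516 to 1220 CPM in WT, where Sparcl1 alone had 449.9 to 1150 CPM. The sum of 8 neuronal markers was 1202 to 1310 CPM in libraries labelled Chd5-/- and 238 to 645 CPM in WT at 3 h, of which Map2 made up 1095 to 1212 CPM in libraries labelled Chd5-/- and 114 to 489.9 CPM in WT. Tubb3 lay the other way, at 89.9 to 98.4 CPM in libraries labelled Chd5-/- and 119 to 157 CPM in WT, and 5 of the 8 were under 1 CPM in all 6 libraries. No neuronal marker was called between genotypes with 12 libraries. Of 8 oligodendrocyte lineage markers, Nkx2-2 and Gpr17 were called as higher at both times. Pdgfra was called as higher at 48 h, Mbp as lower at 3 h, and the rest at neither time. Nkx2-2 had 31.1 to 35.5 CPM in libraries labelled Chd5-/- and 0 in WT at 3 h. At 48 h Aqp4 was the one astrocyte marker called, as lower. The part of these cell-type markers in the CHD results was not tested either. In bulk RNA, fewer cells of a type and less RNA per cell cannot be told apart.

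**Figure D1:**
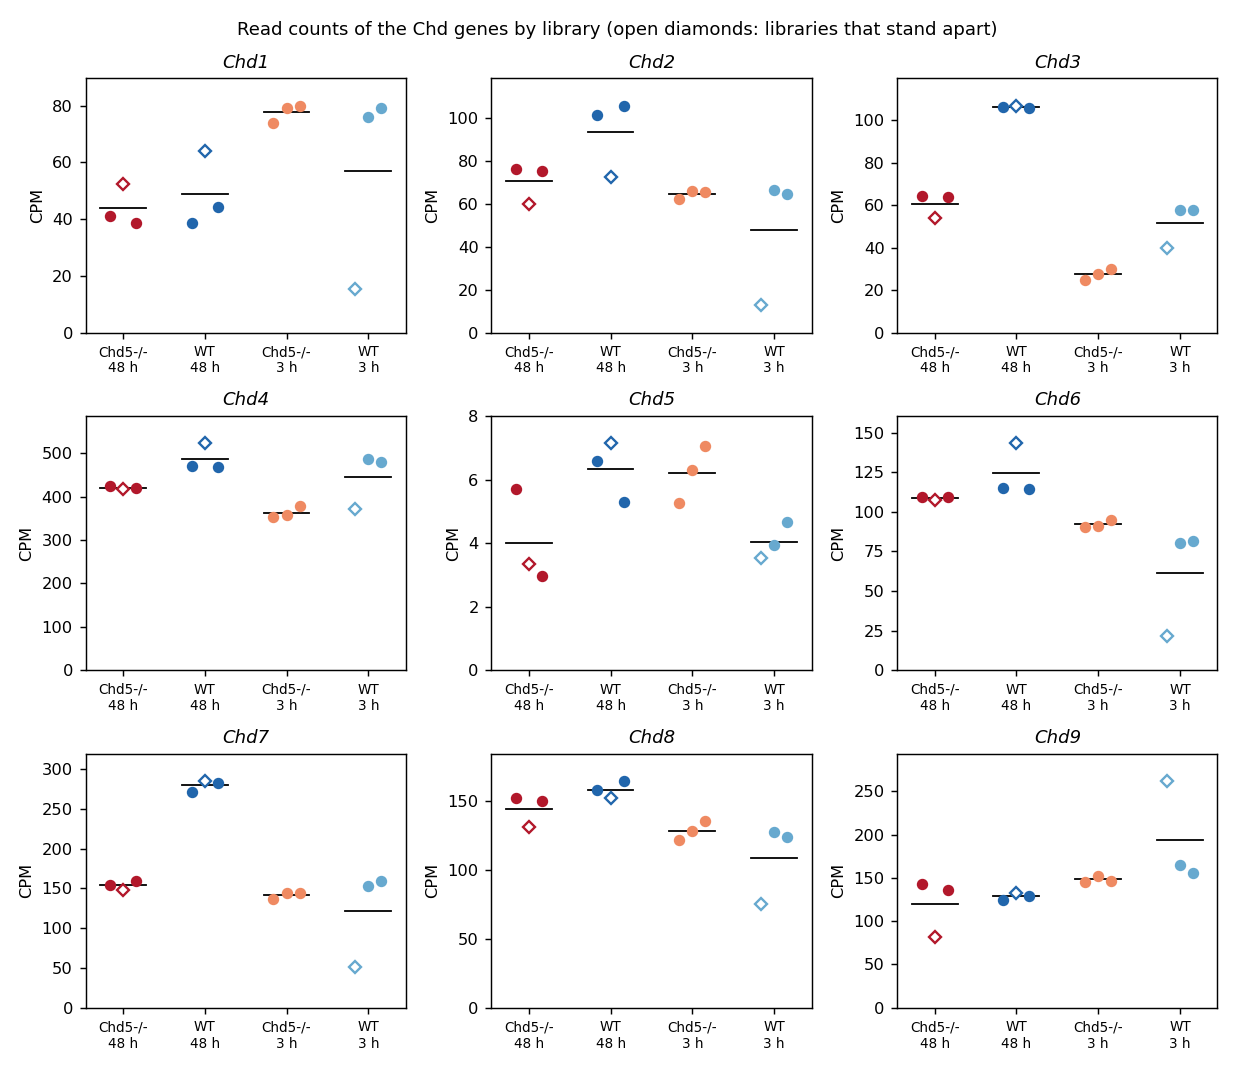
Level of each CHD gene in each of the 12 libraries, in CPM on axes that start at 0, with points for libraries, bars for group means and open diamonds for the 3 libraries that stand apart. Chd3, Chd4, Chd6 and Chd7 lie lower in libraries labelled Chd5-/- than in WT at 48 h without overlap, as do Chd3 and Chd9 at 3 h. Chd5 and Chd6 lie higher at 3 h without overlap.

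Chd5 (ENSMUSG00000005045, chr4:152338651-152390194, plus strand, GRCm38), the targeted gene, was the lowest of the 9 genes and its level showed no loss that followed the label. It had 35 to 124 estimated reads a library. Its 48 h levels were 5.70, 3.34 and 2.96 CPM in libraries labelled Chd5-/- and 6.59, 7.15 and 5.28 CPM in WT, so that the highest library labelled Chd5-/- lay inside the WT range. Its 3 h levels were 5.25, 6.31 and 7.06 CPM in libraries labelled Chd5-/- and 3.54, 3.93 and 4.66 CPM in WT, with every library labelled Chd5-/- above every WT library. Neither difference passed (log2 fold change -0.66 ± 0.31 SE at 48 h, edgeR adjusted p = 0.467; 0.61 ± 0.31 at 3 h, adjusted p = 0.257; n = 3 each). The 95% interval of the fold at 48 h ran from 0.393 to 1.02 and that at 3 h from 0.952 to 2.46. Neither difference passed in any alternative fit, that with 9 libraries included. Over the edgeR, DESeq2 and limma-voom fits, the lowest adjusted p was 0.145 at 48 h and 0.0533 at 3 h. An offset for transcript length, weighted by the TPM of transcripts with these few reads, turned both directions, to 2.44 and -0.25, neither past the threshold.

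The estimated reads of Chd5 moved between its coding transcripts from library to library, and the sequences show how little separates them. Cut into overlapping 31-base words, the default word length of the Salmon program that made the deposited values, 94.4% of Chd5-202, 98.2% of Chd5-201 and 95.5% of Chd5-205 lay in all 3 coding transcripts. Chd5-202 had no word of its own, Chd5-201 had 29 and Chd5-205 had 26. Chd5-205 lacks the first and Chd5-201 the second of 2 coding exons. They are printed here 5′ to 3′ on the plus strand because the assignment of reads to a Chd5 transcript rests in part on them.
Exon of Chd5-201 and Chd5-202, chr4:152376580-152376690: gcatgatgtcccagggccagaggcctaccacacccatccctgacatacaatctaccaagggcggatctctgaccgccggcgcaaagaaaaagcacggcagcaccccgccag
Exon of Chd5-202 and Chd5-205, chr4:152385724-152385838: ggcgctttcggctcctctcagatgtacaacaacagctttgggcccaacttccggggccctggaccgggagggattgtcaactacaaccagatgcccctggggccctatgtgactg
Both exons, of 111 and 115 bases, also lie in the noncoding transcript Chd5-203, 6245 bases long. Chd5-201, at 9122 bases, is shorter than Chd5-202, at 9486, by more than the exon it lacks. First and last exons were not compared. At 48 h, Chd5-202 took 85.8%, 76.8% and 0% of the Chd5 reads in libraries labelled Chd5-/- and 0% in all 3 WT libraries. In libraries labelled Chd5-/- at 3 h it took 76.4%, 86.4% and 18.5%, again with 0% in all WT libraries. Chd5-205 took 62.1% in 1 library labelled Chd5-/- at 48 h, against 66.8% in 1 WT library at 48 h and 79.0% and 66.6% in 2 WT libraries at 3 h. So 5 of the 6 libraries labelled Chd5-/- and no WT library had reads on Chd5-202. The transcript fit gave Chd5-202 an adjusted p of 0.729 at 48 h and 0.313 at 3 h, and the files carry no measure of how surely reads were assigned.

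**Figure D2:**
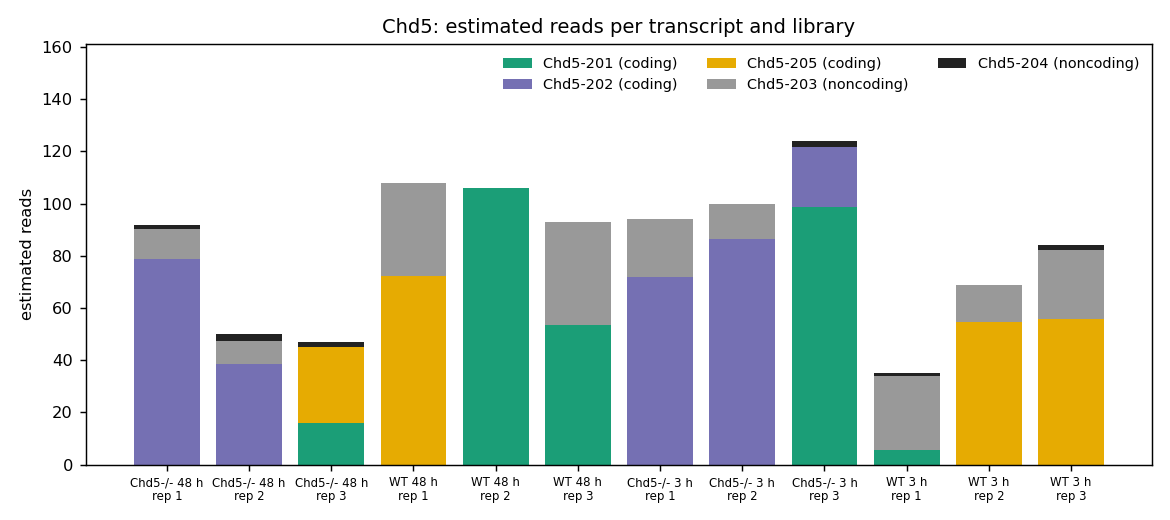
Estimated reads per Chd5 transcript, stacked for each library, libraries labelled Chd5-/- left of WT at each time. Totals lie between 35 and 124 reads, and 5 of the 6 libraries labelled Chd5-/- but none of the WT libraries have reads on Chd5-202.

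Chd3 (ENSMUSG00000018474, chr11:69343273-69369406, minus strand), a NuRD motor, was the one CHD gene that passed between genotypes with all 12 libraries, and it was lower in libraries labelled Chd5-/-. The 48 h levels were 64.3, 53.9 and 64.1 CPM in libraries labelled Chd5-/- and 106, 107 and 106 CPM in WT. In the 3 h libraries the values were 24.9, 27.5 and 29.9 CPM in libraries labelled Chd5-/- and 39.7, 57.8 and 57.9 CPM in WT. The groups do not overlap at either time, and the lowest WT library at 3 h is the one that stands apart. The difference at 3 h was -0.92 ± 0.20 (log2, SE, n = 3 each, edgeR adjusted p = 0.0236), 1 of 9 CHD genes called against 6.71% of all genes. At 48 h it was -0.81 ± 0.20 (adjusted p = 0.0672) and no CHD gene was called, against 2.74% of all genes. At that time 2 CHD genes had an unadjusted p under 0.05, DESeq2 called 1 (Chd3) and limma-voom 0. With the replicate number as a block within 48 h, a pairing that the labels do not state, Chd3 fell by 0.81 (adjusted p = 0.0205). It was 1 of 2 CHD genes called there, both lower, against 8.22% of all genes. It also passed at 48 h with WT replicate 1 of 3 h left out (adjusted p = 0.00215). Chd3 kept its sign in every alternative fit at both times. Its call at 3 h was lost when WT replicate 2 or 3 or any 1 library labelled Chd5-/- of that time was left out (adjusted p up to 0.121), with no filter on low counts (0.145) and with the 6 libraries of 3 h alone (0.0688). From protein-coding transcripts alone the difference was -0.39 with 12 libraries (adjusted p = 0.748) and -0.93 with 9 (4.1e-06), since WT replicate 1 at 3 h gave 78.1% of its Chd3 reads to the retained-intron transcript Chd3-205.

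Chd4 (ENSMUSG00000063870, chr6:125095981-125130591, plus strand), the main NuRD motor of dividing cells, was the highest CHD gene and differed little. Its 48 h levels were 424, 417 and 421 CPM in libraries labelled Chd5-/- and 470.0, 524 and 468 CPM in WT. The 3 h levels were 354, 358 and 379.7 CPM in libraries labelled Chd5-/- and 372, 487 and 481 CPM in WT. All libraries labelled Chd5-/- lay below WT at 48 h, and at 3 h 1 of them lay above the WT library that stands apart. Neither difference passed with 12 libraries (-0.21 ± 0.19, adjusted p = 0.869 at 48 h; -0.30 ± 0.19, adjusted p = 0.371 at 3 h), and both did with 9 (-0.14 ± 0.04, adjusted p = 0.00712; -0.41 ± 0.03, adjusted p = 2.8e-07). The interval with 12 libraries leaves room for a fold between 0.645 and 1.16 at 48 h and between 0.608 and 1.09 at 3 h. The call at 3 h was already made with WT replicate 1 of that time alone left out (adjusted p = 0.0315).

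Chd3 and Chd4 are close relatives of Chd5, and the sequence shows how far their reads can be told apart. Of 8554 words of 31 bases in Chd3 transcripts, 8 are also in Chd4, and Chd5 shares 0 with any other CHD gene. Of the 8 words, 5 lie in a stretch of 35 bases across an exon junction, the longest the 2 genes share, and 3 in another of 33 bases. The longer is shown 5′ to 3′ with the Chd5 counterpart, whose 3 differing bases are in capitals. The spans include the intron between the exons.
Chd3, chr11:69353891-69354091, minus strand: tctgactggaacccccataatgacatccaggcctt
Chd4, chr6:125113560-125113904, plus strand: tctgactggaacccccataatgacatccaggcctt
Chd5, chr4:152375172-152376140, plus strand: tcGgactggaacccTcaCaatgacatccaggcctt

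Levels of different genes were compared per length, as CPM per kb of the longest coding transcript. Chd4 came first and Chd5 last in all 4 groups, without overlap with their neighbours. Chd4 averaged 62.8 CPM per kb in libraries labelled Chd5-/- and 72.8 in WT at 48 h, and 54.3 in libraries labelled Chd5-/- and 66.7 in WT at 3 h. Chd5 averaged 0.422 and 0.669 CPM per kb at 48 h, in libraries labelled Chd5-/- and in WT, and 0.654 and 0.426 at 3 h, in the same order. Between them, the order at 48 h in libraries labelled Chd5-/- was Chd8 (17.0), Chd7 (15.1), Chd6 (10.3), Chd9 (9.98), Chd3 (8.37), Chd2 (7.78) and Chd1 (5.56), where Chd8 and Chd7 overlap, as do neighbours from Chd6 to Chd2. In WT at 48 h it was Chd7 (27.4), Chd8 (18.6), Chd3 (14.6), Chd6 (11.8), Chd9 (10.7), Chd2 (10.3) and Chd1 (6.19), where neighbours from Chd6 to Chd1 overlap. Chd7 thus ranked above Chd8 in WT and below it, within the spread, in libraries labelled Chd5-/-. At 3 h the order in libraries labelled Chd5-/- was Chd8 (15.1), Chd7 (13.9), Chd9 (12.3), Chd1 (9.81), Chd6 (8.76), Chd2 (7.11) and Chd3 (3.78), with no overlap between neighbours. In WT at 3 h it was Chd9 (16.2), Chd8 (12.8), Chd7 (11.9), Chd1 (7.18), Chd3 (7.13), Chd6 (5.82) and Chd2 (5.28), where every neighbouring pair overlaps. The deposited TPM summed per gene put the mean of Chd9 first in all 4 groups, ahead of Chd4, because of the short transcript described below. In libraries labelled Chd5-/- at 48 h the TPM ranges of the 2 genes overlap. The short transcript also counts in the Chd9 levels per length above. From coding transcripts alone, Chd9 averaged 4.92 CPM per kb in libraries labelled Chd5-/- and 3.60 in WT at 48 h, rank 8 in both. At 3 h it averaged 3.64 (rank 7) in libraries labelled Chd5-/- and 1.86 (rank 8) in WT.

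**Figure D3:**
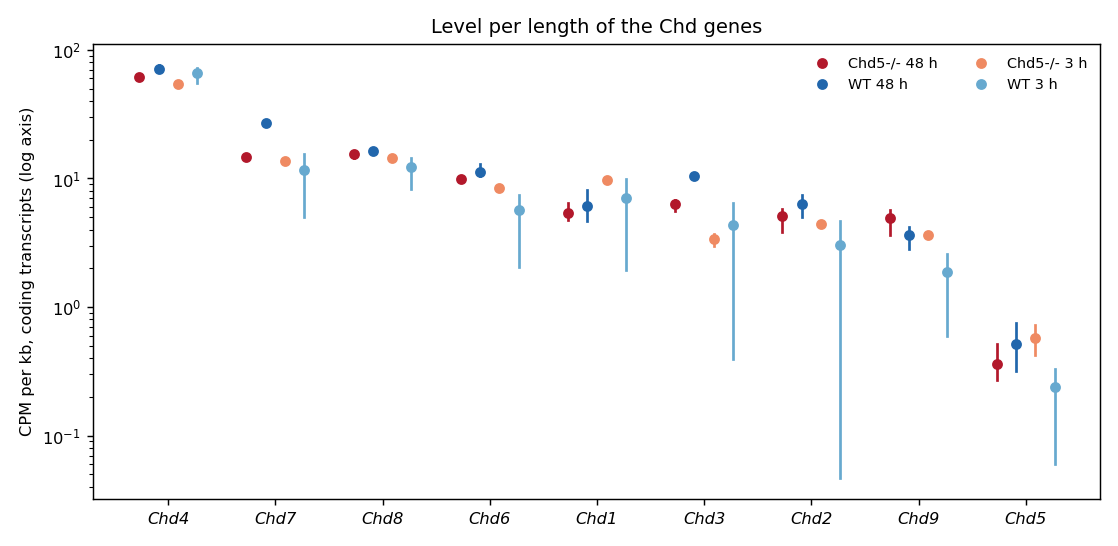
Level per length of each CHD gene from protein-coding transcripts alone, in CPM per kb on a log axis, with points for group means and lines from the lowest to the highest of 3 libraries, groups labelled Chd5-/- left of WT. Chd4 lies highest and Chd5 lowest in every group, and the long lines in WT at 3 h come from replicate 1.

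Among the 3 NuRD motors, Chd4 made up most of the summed level per length and Chd3 took a smaller share in libraries labelled Chd5-/-. At 48 h the Chd3 share was 12.2%, 10.6% and 12.3% in libraries labelled Chd5-/- and 17.1%, 15.7% and 17.1% in WT. At 3 h it was 6.03%, 6.55% and 6.70% in libraries labelled Chd5-/- and 8.90%, 9.82% and 9.93% in WT. The groups do not overlap at either time, and the values were not tested. Chd5 made up 0.434% to 0.825% in libraries labelled Chd5-/- and 0.655% to 0.813% in WT at 48 h, and 0.976% to 1.21% in libraries labelled Chd5-/- and 0.511% to 0.612% in WT at 3 h. By the deposited TPM the Chd5 share was higher in libraries labelled Chd5-/- at 48 h, at 2.62% to 4.50% against 0.431% to 0.511% in WT without overlap, and at 3 h it was 0.710% to 4.81% in libraries labelled Chd5-/- and 0.337% to 3.69% in WT. TPM divides by transcript length, so that single reads on a short form, such as the noncoding Chd5-204 of 280 bases, weigh heavily. At 48 h, replicate 3 labelled Chd5-/- had 47 Chd5 reads, 96.2% on coding transcripts, and a TPM of 2.60. WT replicate 3 had 93.0 reads, 57.3% on coding transcripts, and a TPM of 0.519. Which transcript set these TPM shares was not tested. The Chd3 share by TPM was larger in every library and again lower in those labelled Chd5-/- without overlap, at 19.6% to 22.0% against 29.5% to 30.5% in WT at 48 h and 9.63% to 11.96% against 17.3% to 26.9% in WT at 3 h. From coding transcripts alone, the mean Chd3 share at 3 h was 5.80% in libraries labelled Chd5-/- and 5.63% in WT, where replicate 1 pulled the WT mean down.

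Chd7 (ENSMUSG00000041235, chr4:8690406-8867659, plus strand), mutated in people with CHARGE syndrome and needed in mouse for neural stem cell function, was lower in libraries labelled Chd5-/- at 48 h in every library. It stood at 154, 148 and 159.8 CPM in libraries labelled Chd5-/- and at 271, 285 and 283 CPM in WT at 48 h. At 3 h it had 136, 144 and 144 CPM in libraries labelled Chd5-/- and 51.8, 153 and 159.7 CPM in WT. The 48 h groups lie far apart and each is tight, while WT at 3 h holds 1 library well below the rest. The difference at 48 h was -0.86 ± 0.34 with 12 libraries (unadjusted p = 0.0292, edgeR adjusted p = 0.322). With the replicate block within 48 h it was -0.86 ± 0.09 (adjusted p = 0.0157) and with 9 libraries -0.81 ± 0.04 (adjusted p = 4.8e-09). Leaving out WT replicate 1 of 3 h alone, a library outside this comparison that widens the shared spread, gave an adjusted p of 3.4e-04. Chd7 kept its sign at 48 h in every alternative. At 3 h the difference was 0.22 ± 0.34 (adjusted p = 0.725) and turned to -0.14 ± 0.04 without the 3 libraries (adjusted p = 0.00702).

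Chd8 (ENSMUSG00000053754, chr14:52198151-52257780, minus strand), a high-confidence autism gene in people, stood at 153, 131 and 149.9 CPM in libraries labelled Chd5-/- and at 158, 153 and 165 CPM in WT at 48 h. Its 3 h levels were 122, 129 and 136 CPM in libraries labelled Chd5-/- and 75.3, 128 and 124 CPM in WT. The groups overlap at both times, and neither difference passed with 12 or with 9 libraries (with 12, -0.13 ± 0.22, adjusted p = 0.989, and 0.24 ± 0.22, adjusted p = 0.547). With 9 libraries the 95% interval of the log2 fold change ran from -0.19 to 0.02 at 48 h and from -0.07 to 0.13 at 3 h.

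Chd6 (ENSMUSG00000057133, chr2:160946978-161109075, minus strand), a large paralogue linked in human cells to the oxidative stress response, stood at 109, 108 and 109.6 CPM in libraries labelled Chd5-/- and at 115, 143 and 115 CPM in WT at 48 h. In the 3 h libraries the values were 90.7, 90.8 and 94.7 CPM in libraries labelled Chd5-/- and 21.9, 80.2 and 81.6 CPM in WT. All libraries labelled Chd5-/- lay below WT at 48 h and above WT at 3 h. Neither difference passed with 12 libraries (-0.19 ± 0.39, adjusted p = 0.998; 0.59 ± 0.39, adjusted p = 0.383). With 9 libraries Chd6 rose at 3 h by 0.19 ± 0.04 (adjusted p = 7.8e-04), and the value at 48 h was -0.06 ± 0.04 (adjusted p = 0.214).

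Chd9 (ENSMUSG00000056608, chr8:90828352-91054516, plus strand), first described as a chromatin-related factor of mesenchymal cells, gave opposite directions by what was counted. Summed over all transcripts it stood at 142, 81.3 and 136 CPM in libraries labelled Chd5-/- and at 124, 133 and 129 CPM in WT at 48 h. The 3 h levels were 145, 153 and 147 CPM in libraries labelled Chd5-/- and 262, 165 and 155 CPM in WT. A single short transcript, Chd9-206, of 759 bases in 3 exons and annotated as a processed transcript without coding sequence, took 40.1% to 97.1% of these reads. Its last exon (chr8:90890977-90891521, 545 bases) shares 68.0% of its 31-base words with transcripts of 10 other genes and 0 with the coding Chd9 transcripts. Whether its reads came from Chd9 was not tested. The coding transcripts stood at 68.4, 43.9 and 64.9 CPM in libraries labelled Chd5-/- and at 45.8, 33.8 and 50.2 CPM in WT at 48 h. Their 3 h levels were 43.4, 43.7 and 44.0 CPM in libraries labelled Chd5-/- and 7.09, 28.9 and 31.1 CPM in WT. All libraries labelled Chd5-/- lay above WT at 3 h, while at 48 h replicate 2 labelled Chd5-/- lay inside the WT range and above WT replicate 2.

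The summed level of Chd9 did not pass at either time with 12 libraries (-0.10 ± 0.27, adjusted p = 1 at 48 h; -0.39 ± 0.27, adjusted p = 0.404 at 3 h). From coding transcripts the values were 0.41 ± 0.41 at 48 h (adjusted p = 0.934) and 0.93 ± 0.42 at 3 h (adjusted p = 0.218) with 12 libraries, where 2.4% and 5.59% of all genes were called. With 9 libraries the coding level rose by 0.47 ± 0.06 at 48 h (adjusted p = 1.5e-04) and by 0.53 ± 0.06 at 3 h (adjusted p = 4.1e-05). That is the largest rise of a paralogue in libraries labelled Chd5-/- in those fits, in which 44.8% of all genes were called at 48 h and 50.8% at 3 h.

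**Figure D4:**
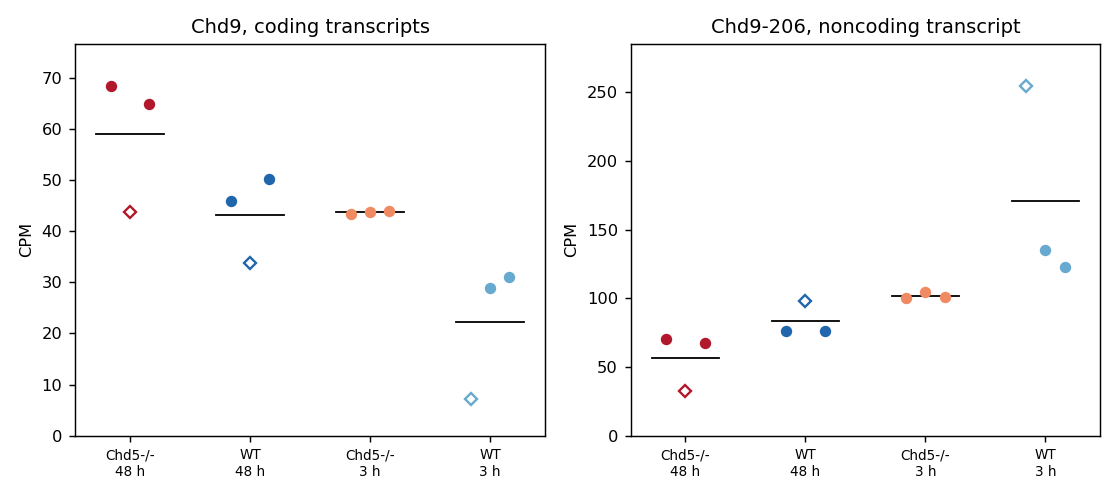
Level of the coding Chd9 transcripts (left) and of the noncoding transcript Chd9-206 (right) in each library, in CPM on axes that start at 0, with bars for group means and open diamonds for the 3 libraries that stand apart. At 3 h the coding level is higher in libraries labelled Chd5-/- than in WT and Chd9-206 is lower.

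Chd1 (ENSMUSG00000023852, chr17:15704967-15772610, plus strand) binds methylated histone H3 at active promoters and keeps the chromatin of mouse embryonic stem cells open. It stood at 41.1, 52.3 and 38.5 CPM in libraries labelled Chd5-/- and at 38.6, 64.0 and 44.3 CPM in WT at 48 h. At 3 h it had 73.8, 79.1 and 80.0 CPM in libraries labelled Chd5-/- and 15.3, 76.1 and 79.1 CPM in WT. The genotypes overlap at both times, and the value at 3 h of 0.45 ± 0.47 (adjusted p = 0.597) became -0.001 ± 0.05 with 9 libraries (95% interval -0.12 to 0.12).

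Chd2 (ENSMUSG00000078671, chr7:73426638-73541830, minus strand), mutated in people with childhood epilepsy, stood at 76.4, 60.0 and 75.6 CPM in libraries labelled Chd5-/- and at 102, 72.8 and 106 CPM in WT at 48 h. Its 3 h levels were 62.3, 66.0 and 65.4 CPM in libraries labelled Chd5-/- and 12.7, 66.6 and 64.8 CPM in WT. At 48 h the groups overlap through replicate 2 of WT, while within each same-numbered pair the library labelled Chd5-/- lay below WT. The difference there was -0.40 ± 0.47 (adjusted p = 0.933) with 12 libraries, with an adjusted p of 0.0805 under the replicate block within 48 h, and -0.44 ± 0.04 (adjusted p = 2.6e-06) with 9, and at 3 h it was 0.43 ± 0.47 (adjusted p = 0.61) and -0.03 ± 0.04 (adjusted p = 0.642). Of the 31-base words of Chd2, 17.7% lie also in 1810026B05Rik, the noncoding RNA Chaserr, which in mouse is made just upstream of Chd2 and represses it. Most of them are in forms with few or no reads. Of the 2 forms that hold most Chd2 reads, Chd2-203 shares 6.37% of its words with another gene and Chd2-212 shares 0%, so that the division of reads is uncertain for a small part of the gene. 1810026B05Rik, looked up after its overlap was seen, stood at 14.4, 12.8 and 18.6 CPM in libraries labelled Chd5-/- and at 20.9, 14.2 and 22.1 CPM in WT at 48 h. In the 3 h libraries the values were 16.9, 17.0 and 17.9 CPM in libraries labelled Chd5-/- and 22.7, 18.3 and 17.4 CPM in WT. It was not called with 12 libraries (-0.32 ± 0.24, adjusted p = 0.804 at 48 h; -0.17 ± 0.24, adjusted p = 0.697 at 3 h), and with 9 it differed by -0.38 ± 0.10 at 48 h (adjusted p = 0.00877), lower as Chd2 was.

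With all 12 libraries no paralogue was called as higher in libraries labelled Chd5-/- at either time, summed or from coding transcripts alone. The intervals do not exclude increases. Among summed levels, the widest upper bounds of the fold at 3 h were 2.81 for Chd1, 2.74 for Chd2 and 2.71 for Chd6, and at 48 h 1.85 for Chd1. WT replicate 1 at 3 h was the lowest library of that time for Chd1, Chd2 and Chd6. These bounds leave out coding levels, where Chd9 at 3 h had a log2 fold change of 0.929 with 12 libraries (edgeR adjusted p = 0.218). Of all genes, 1.53% were called as higher at 48 h and 3.24% at 3 h. With 9 libraries, 5 of 9 CHD genes were called at 48 h, against 47.7% of all genes, and 5 of 9 at 3 h, against 53.6%, so that the share of CHD genes lay near that of all genes. At 48 h the called genes were Chd9 (0.14, summed) as higher and Chd2 (-0.44), Chd3 (-0.71), Chd4 (-0.14) and Chd7 (-0.81) as lower. At 3 h they were Chd6 (0.19) as higher and Chd3 (-1.08), Chd4 (-0.41), Chd7 (-0.14) and Chd9 (-0.11, summed) as lower. From coding transcripts, Chd9 was called as higher with 9 libraries at both times, by 0.47 at 48 h and 0.53 at 3 h. In those fits 44.8% of all genes were called at 48 h and 50.8% at 3 h.

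**Figure D5:**
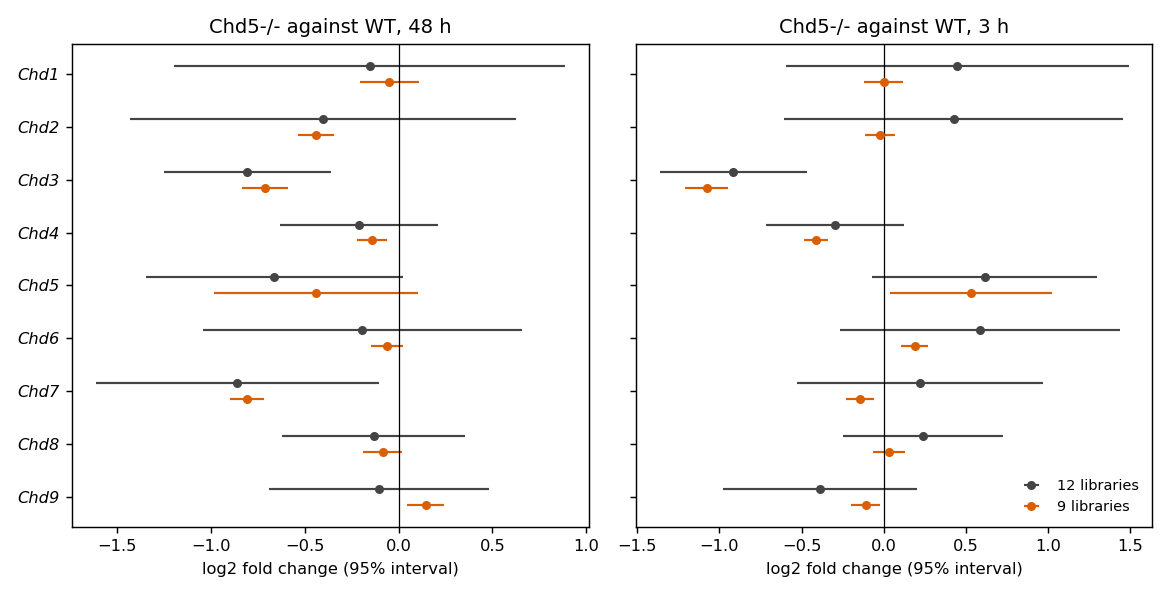
Log2 fold change of each CHD gene in libraries labelled Chd5-/- against WT at 48 h (left) and 3 h (right), with 95% intervals, from all 12 libraries and from the 9 left without those that stand apart. Chd3 lies below 0 in both panels and Chd7 in the left one, and intervals from 9 libraries are far narrower.

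Chd3 rose with time in both genotypes. It averaged 60.7 ± 5.95 CPM at 48 h and 27.4 ± 2.53 CPM at 3 h in libraries labelled Chd5-/- (SD, n = 3 each; 1.15 ± 0.20, edgeR adjusted p = 0.00378), where it was the 1 CHD gene called, against 22.1% of all genes. In WT it averaged 106.3 ± 0.587 CPM at 48 h and 51.8 ± 10.47 CPM at 3 h (1.04 ± 0.20, adjusted p = 0.00755). From protein-coding transcripts alone both calls of Chd3 were lost (adjusted p = 0.326 in libraries labelled Chd5-/- and 0.166 in WT), as was that in WT when only the WT libraries were fitted (0.12). The coding level of Chd3 was still higher at 48 h without overlap. It was 40.3 to 49.4 CPM against 21.8 to 26.9 CPM at 3 h in libraries labelled Chd5-/-. In WT it was 72.0 to 78.3 CPM against 2.84 to 46.7 CPM at 3 h, where replicate 1 was the lowest. Chd7 was the other of 2 CHD genes called in WT, against 22.9% of all genes, at 279.7 ± 7.63 CPM at 48 h and 122 ± 60.5 CPM at 3 h (1.202 ± 0.34, adjusted p = 0.0314). Its call was lost when WT replicate 1 or 3 of 48 h, or any library labelled Chd5-/- of 3 h, was left out (adjusted p up to 0.0817), and with 9 libraries it rose by 0.79 ± 0.04 (adjusted p = 8.4e-10). In libraries labelled Chd5-/-, Chd7 changed by 0.12 ± 0.34 with 12 libraries (adjusted p = 0.831) and by 0.12 ± 0.04 with 9 (adjusted p = 0.0113).

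Chd1 went the other way. Its time difference was -0.82 ± 0.48 in libraries labelled Chd5-/- (adjusted p = 0.245) and -0.22 ± 0.47 in WT (adjusted p = 0.764) with 12 libraries. Leaving out WT replicate 1 of 3 h alone gave adjusted p of 0.00779 and 0.0374. With 9 libraries it fell in both, by 0.99 in those labelled Chd5-/- (SE 0.06, adjusted p = 4.3e-09) and by 0.94 in WT (SE 0.07, adjusted p = 1.6e-08). In WT, leaving out that library called 5 CHD genes, against 33.6% of all genes: Chd3, Chd6, Chd7 and Chd8 as higher (18.1% of all genes) and Chd1 as lower (15.5%). At 48 h the 2 highest Chd1 levels were those of the libraries with high mitosis genes, 52.3 CPM labelled Chd5-/- and 64.0 CPM in WT. With 9 libraries all 9 CHD genes were called with time in libraries labelled Chd5-/-, 6 higher and 3 lower, against 79.8% of all genes, 39.3% higher and 40.6% lower. In WT 7 were called, 5 higher and 2 lower, against 77% of all genes, 38.3% higher and 38.6% lower.

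The genotype difference itself was compared between the times with the interaction, the difference at 48 h minus that at 3 h. No CHD gene was called by edgeR with 12 libraries, against 0.231% of all genes, while 2 had an unadjusted p under 0.05 and DESeq2 and limma-voom called 0 each. These 2 were Chd5 (-1.28 ± 0.44, adjusted p = 0.348) and Chd7 (-1.08 ± 0.48, adjusted p = 0.493). Without WT replicate 1 of 3 h alone, Chd7 was called (adjusted p = 0.0211). With 9 libraries 7 of 9 were called, against 41.5% of all genes, and Chd7 had the smallest p (-0.67 ± 0.06, adjusted p = 1.1e-06), followed by Chd2 (-0.42 ± 0.06, adjusted p = 1.1e-04). Chd3 had 0.36 ± 0.08 there (adjusted p = 0.00338), a smaller deficit at 48 h than at 3 h, and 0.11 ± 0.28 with 12 libraries (adjusted p = 0.893). Chd5 was also among the 7 called with 9 libraries. Its smallest adjusted p in the interaction over the alternative fits was 0.0356 (edgeR), and the length offset turned its direction.

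Single transcripts gave 0 calls among 58 CHD transcripts at either time by edgeR with 12 libraries, against 0.0451% of all transcripts at 48 h and 0.378% at 3 h. An unadjusted p under 0.05 was reached by 2 of them at 48 h and 8 at 3 h, and no other tool was run on transcripts. With 9 libraries, 3 were called at 48 h (6.97% of all transcripts): Chd2-212, a target of nonsense-mediated decay (-0.77 ± 0.12, adjusted p = 0.0138), Chd7-202, the full-length coding form (-0.82 ± 0.05, adjusted p = 3.8e-04), and Chd7-208, a coding form of 582 bases (-0.88 ± 0.20, adjusted p = 0.0481). At 3 h, 4 were called (10.1% of all transcripts): the coding forms Chd4-202 (-0.56 ± 0.10, adjusted p = 0.0128), Chd6-201 (0.17 ± 0.03, adjusted p = 0.0151) and Chd9-202 (0.61 ± 0.10, adjusted p = 0.00948), and the noncoding Chd9-206 (-0.36 ± 0.05, adjusted p = 0.00425). Outside WT replicate 1 of 3 h, 4 genes used mostly 1 form: Chd1-201 took 86.0% to 93.8% of the Chd1 reads, Chd6-201 93.8% to 96.5% of those of Chd6, Chd7-202 91.2% to 95.5% of those of Chd7 and Chd8-201 62.4% to 77.2% of those of Chd8. In the same 11 libraries, Chd2 reads were divided between Chd2-203, with 53.7% to 65.1%, and Chd2-212, with 25.9% to 37.1%. Chd3 used Chd3-202 and Chd3-204, and Chd4 used Chd4-202 and Chd4-203, whose shares varied between replicates of a group as much as between groups.

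Partners of the CHD proteins were read from the same fits. With all 12 libraries, none of the 12 NuRD partners tested was called by edgeR between genotypes, with 1 at an unadjusted p under 0.05 at each time, and their median log2 fold change was -0.15 at 48 h and -0.01 at 3 h (all genes, -0.02 at both times). DESeq2 called 1 of them at 48 h, Mta3, a NuRD scaffold subunit (0.76, adjusted p = 0.0324), and 0 at 3 h, and limma-voom called 0 at both times. With 9 libraries, 2 of 12 were called as higher and 8 as lower at 48 h, against 25.5% and 22.1% of all genes, and 1 as higher and 5 as lower at 3 h, against 27.8% and 25.8%. At 48 h the smallest p belonged to Cdk2ap1, a small accessory subunit (-0.74 ± 0.04, adjusted p = 4.9e-09), followed by the deacetylase Hdac2 (-0.30 ± 0.04, adjusted p = 7.4e-05) and Mta2 (-0.30 ± 0.04, adjusted p = 8.2e-05). At 3 h they were Rbbp7, a histone chaperone subunit (-0.31 ± 0.04, adjusted p = 9.1e-06), Hdac2 (-0.28 ± 0.04, adjusted p = 1.9e-05) and the methyl-CpG domain subunit Mbd3 (-0.28 ± 0.04, adjusted p = 9.5e-05). Hdac2, Mbd2, Mbd3, Rbbp4 and Rbbp7 were lower and Mta3 higher at both times in that fit. With time, 0 of the 12 partners were called as higher and 4 as lower in libraries labelled Chd5-/-, and 0 and 2 in WT, with all 12 libraries. With 9 libraries 9 fell and 1 rose in either genotype, where 40.6% of all genes fell and 39.3% rose in libraries labelled Chd5-/-, and 38.6% and 38.3% in WT.

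The other remodelling ATPases of the SNF2 family, 14 genes, had 0 called by edgeR with 12 libraries at either time, with 1 at an unadjusted p under 0.05 each, and medians of -0.10 at 48 h and 0.34 at 3 h. DESeq2 called 0 at 48 h and Smarca1 at 3 h (-1.93, adjusted p = 0.0499), and limma-voom 0 at both. With 9 libraries, 4 were higher and 2 lower at 48 h, against 25.5% and 22.1% of all genes, and 3 higher and 4 lower at 3 h, against 27.8% and 25.8%, with medians of 0.02 at both times. These counts lie near the shares of all genes. Smarca1, the Snf2l motor of nucleosome-spacing complexes, had the smallest p at 48 h (1.66 ± 0.12, adjusted p = 1.7e-07) and went the other way at 3 h (-2.29 ± 0.22, adjusted p = 1.3e-06). Of 8 chromatin partners of Chd7 and Chd8, edgeR called 0 at either time with 12 libraries, 0 and 1 having an unadjusted p under 0.05 at 48 h and 3 h, and DESeq2 and limma-voom called 0 as well. With 9 libraries 3 were higher and 2 lower at 48 h and 2 higher and 2 lower at 3 h, so that 5 and 4 of the 8 were called, near the 47.7% and 53.6% of all genes. Sox2, a neural stem cell factor reported to bind Chd7 in mouse cells, rose at 48 h there (0.55 ± 0.04, adjusted p = 4.2e-07), opposite to Chd7. Of 3 partners of Chd4 in the ChAHP complex, 0 were called with 12 libraries by any of the 3 tools or at an unadjusted p under 0.05 by edgeR. With 9 libraries 2 were called at each time, against 47.7% of all genes at 48 h and 53.6% at 3 h. At 48 h these were Cbx3 (0.18 ± 0.04, adjusted p = 0.00302) and Cbx1 (0.22 ± 0.06, adjusted p = 0.00689), both higher. At 3 h they were Adnp, the DNA-binding subunit (0.83 ± 0.18, adjusted p = 0.00148), as higher and Cbx1 (-0.18 ± 0.05, adjusted p = 0.00787) as lower. None of 10 mitosis genes was called between genotypes by the 3 tools with 12 libraries, nor had one an unadjusted p under 0.05. With 9 libraries 2 were called as higher and 1 as lower at 48 h, against 25.5% and 22.1% of all genes. At 3 h 5 were called as higher and 2 as lower, against 27.8% and 25.8%. The median at 3 h was 0.08 and Kif11, a spindle motor, had the smallest p (0.67 ± 0.03, adjusted p = 2.3e-09). Ribosomal protein genes, 77 in all, had a median of -1.38 at 3 h with 12 libraries and -0.04 with 9.

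By the root mean square difference of centred log2 levels over the 12 libraries, among 11484 genes, the profiles nearest to Chd5 were those of Trim46 (0.211), Vav2 (0.235) and Whrn (0.238). Among the nearest to the others were Pds5a for Chd1 (0.092), Nckap5l for Chd3 (0.159), Phrf1 for Chd4 (0.104), Prpf4b for Chd6 (0.102), Neo1 for Chd7 (0.147), Dnajc5 for Chd8 (0.066) and Ubtf for Chd9 (0.136). The level of WT replicate 1 at 3 h weighs on these distances, since it is far from its group in most CHD genes.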

How the data were processed

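RNA of 12 mouse neural stem cell libraries was sequenced from stranded poly(A) libraries, per the labels' protocols. The deposited tables hold, per transcript, estimated counts (the number of reads assigned) and TPM (abundances normalised for transcript length and depth) made by the authors with Salmon, per the submitters' processing notes, whose version is not given in the sources used here. The transcript identifiers were matched to GENCODE M21 (GRCm38), 140137 of 140658, and the 521 unmatched, with 0.135% to 0.181% of reads, were left out. Estimated counts were summed per gene and rounded to whole numbers.

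Genes passed edgeR's filterByExpr (minimum count 10, total 15). The main test was edgeR's quasi-likelihood test with TMM scaling on all 12 libraries and 4 group means, with Benjamini-Hochberg adjustment over all 16043 genes and a threshold of 0.05. Transcripts were fitted likewise. Versions were R 4.3.3, edgeR 4.0.16, limma 3.58.1, DESeq2 1.42.0, Python 3.11.15 and pandas 2.3.3. The scripts were tested on simulated counts.

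Replicate numbers were checked by correlating deviations from group means of same-numbered libraries: r was 0.56, 0.74 and 0.56 between genotypes at 48 h, 0.15, 0.08 and 0.05 at 3 h, and -0.01 to 0.02 between times. At 48 h replicate 2 stood apart in both genotypes and shifts both group means. The check therefore cannot tell whether replicates 1 and 3 of 48 h are paired by number, and the labels state no pairing. The 3 libraries that stand apart were picked from their whole profiles, not from CHD genes.

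Depth was 14.11 to 18.71 M estimated reads. Intervals cover the spread between libraries. All 9 genes are named; transcripts are named where they hold at least 20% of a gene's reads in 1 library or are called; partner genes called between genotypes are named, at most 4 a list and comparison by smallest p; likeness used genes with a mean of at least 2 CPM and a pseudocount of 0.5, and 1 result of it is not reported here. The members and lists were chosen with earlier results of these data known. Alternatives were other scalings, filters, tools, transcript sets, a length offset, blocks and left-out libraries.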

Additional observations from a re-analysis of the deposited data

Results flagged for a closer look

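By library ranges Chd6 lay opposite ways at the 2 times: every library labelled Chd5-/- lay below every WT library at 48 h and above every WT library at 3 h. Neither difference passed with 12 libraries (edgeR adjusted p = 0.998 at 48 h and 0.383 at 3 h). With 9 libraries the 48 h value of -0.06 did not pass (adjusted p = 0.214), and the rise at 3 h did (adjusted p = 7.8e-04). The difference between these differences was -0.78 ± 0.55 (log2, SE) with 12 libraries, which did not pass (edgeR adjusted p = 0.629), and -0.25 ± 0.05 with 9 (adjusted p = 0.00217). The WT library at 3 h that stands apart had 21.9 CPM of Chd6, against 80.2 and 81.6 CPM in the other 2, and the part of its short transcripts in this value was not tested.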

How the results depend on the processing

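The results turned most on the 3 libraries that stand apart and on which transcripts were summed; the causes were not tested. Depth limits Chd5, at 35 to 124 reads a library, where a length offset turned every contrast. Of the alternatives for single genes, 917 kept direction and side of the threshold, 63 newly passed, 18 no longer passed and 37 turned. The 9-library fits were planned with earlier results of these data known, and the protein-coding 9-library fits and the block within 48 h were added after the data were seen. The replicate block over both times, for numbers that pair no libraries there, changed no CHD gene call between genotypes, and block values within 48 h stand in the report.

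Between genotypes at 48 h, 440 genes and 0 CHD genes passed with 12 libraries. DESeq2 gave 920 and 1, a length offset 266 genes, the 48 h libraries alone 236 and 1, the replicate block within 48 h 1319 and 2, 9 libraries 7645 and 5, and coding transcripts in 9 libraries 5923 and 5. Leaving out 1 library gave 192 to 1443 genes and 0 to 2 CHD genes. At 3 h, 1077 genes and 1 CHD gene passed. DESeq2 gave 2091 genes and a length offset 717, 9 libraries 8598 and 5, and coding transcripts in 9 libraries 6721 and 5, while no filter, the 3 h libraries alone and coding transcripts gave 0 CHD genes. Leaving out 1 library gave 423 to 1643 genes and 0 to 2 CHD genes. Between times in libraries labelled Chd5-/-, 3544 genes and 1 CHD gene passed. The groups compared alone gave 8071 and 3, 9 libraries 12810 and 9, coding transcripts 0 CHD genes and coding transcripts in 9 libraries 10343 and 8, and leaving out 1 library 1711 to 7165 genes and 1 to 2 CHD genes. In WT, 3668 and 2 passed. No filter gave 1 CHD gene, DESeq2 4, the groups compared alone 0 genes and 0 CHD genes, 9 libraries 12346 and 7, coding transcripts 2266 and 1, coding transcripts in 9 libraries 9833 and 7, and leaving out 1 library 1501 to 5390 and 1 to 5. For the interaction, 37 genes and 0 CHD genes passed, against 385 genes with DESeq2, 18 with the replicate block, 6653 and 7 with 9 libraries, 5120 and 3 with coding transcripts in 9 libraries, and 15 to 335 and 0 to 1 without 1 library. Of transcripts, 23 passed at 48 h and 193 at 3 h, with 4 and 51 under the replicate block, 3559 and 5134 with 9 libraries, and 3 to 358 and 72 to 644 without 1 library. CHD transcripts passing were 0 at both times, 3 at 48 h and 4 at 3 h with 9 libraries, and 0 to 1 at 48 h without 1 library.

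Directions turned as follows on the log2 scale. At 48 h Chd1 turned to 0.152 and Chd5 to 2.444 with the length offset, Chd5 to 0.066 from coding transcripts in 9 libraries, and Chd9 to 0.144 with 9 libraries, 0.415 from coding transcripts and 0.473 from both. Without 1 library, Chd1 ranged from -0.302 to 0.085 and Chd9 from -0.249 to 0.108. At 3 h, with 9 libraries and then from coding transcripts in them, Chd1 turned to -0.001 and -0.018, Chd2 to -0.026 and -0.066, and Chd7 to -0.145 and -0.168. Chd5 turned to -0.252 with the length offset, and Chd9 to 0.929 from coding transcripts and 0.528 with 9 libraries as well. Without 1 library Chd1 ranged from 0 to 0.761, Chd2 from -0.025 to 0.733 and Chd7 from -0.144 to 0.466. Between times in libraries labelled Chd5-/-, Chd5 turned to 1.083 with the length offset and Chd9 to 0.514 and 0.671 from coding transcripts, with 12 and 9 libraries. In WT, Chd1 turned to 0.027 with limma-voom (-0.685 to 0.096 without 1 library), Chd4 to -0.079 with 9 libraries and -0.007 from their coding transcripts (-0.012 to 0.192 without 1 library), Chd5 to -1.613 with the length offset and Chd9 to 1.028 and 0.727 from coding transcripts. In the interaction Chd3 turned to -0.37 and Chd9 to -0.514 from coding transcripts, Chd9 to -0.055 with 9 libraries as well, and Chd4 to -0.009 and Chd5 to 2.696 with the length offset.

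The ratio of Chd4 to Chd5 per length was 161.2 in libraries labelled Chd5-/- at 48 h (24.74 by TPM), 110.1 in WT at 48 h (152.0 by TPM, 155.3 from coding transcripts), 83.92 in libraries labelled Chd5-/- at 3 h (97.64 from coding transcripts) and 156.8 in WT at 3 h (98.21 and 451.8). The Chd5 share of the NuRD motors by TPM was 3.26%, 0.4595%, 2.107% and 2.172% in those groups in turn, and from coding transcripts 0.6136% in WT at 48 h and 0.3152% in WT at 3 h. The Chd5 values by TPM rest on few reads, as described above. The Chd3 share was 21.01%, 30.1%, 10.58% and 21.12% by TPM and 9.163%, 12.68%, 5.799% and 5.626% from coding transcripts.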
